A study of Homo sapiens with 2 samples.

Results

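The let-7 family is one of the oldest and most abundant groups of animal microRNAs (miRNAs), and it was followed here in FaDu cells, a squamous carcinoma line of the hypopharynx (spelled FadU in the labels). The 10 names described are the main arms let-7a-5p, let-7b-5p, let-7c, let-7d-5p, let-7e-5p, let-7f-5p, let-7g-5p, let-7i-5p and miR-98-5p, and the passenger arm let-7a-3p. They were picked by family name out of 2038 mature miRNA names. Small RNA had been sequenced from 1 library of parental cells and 1 library of spheres, so no difference below has a replicate check, a test or a p-value. Parental cells had grown in RPMI-1640 with 10% serum. Sphere cells, which the labels call cancer stem cells derived from spheres, had grown in DMEM-F12 with N2 Plus supplement, bFGF at 10 ng/ml and EGF at 10 ng/ml, and both media held 1% penicillin-streptomycin. The labels name no genetic change between the groups, and both come from this single line. The effects of medium, growth factors, growth form and the single library of each group cannot be told apart.

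A miRNA is cut from a hairpin as a duplex of 2 arms, of which the main arm is loaded into Argonaute and the passenger arm is mostly lost. Bases 2 to 8 of the loaded arm, the seed, find the target messages. The let-7 main arms repress growth and fetal genes such as HMGA2, RAS genes and LIN28, and they accumulate as cells differentiate. LIN28 in turn binds let-7 precursors, in part through a GGAG motif in the loop, and blocks their processing.

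The mature sequences show how alike the members are, which bears on how reads could be assigned to them. They are taken from RefSeq (GRCh38.p14), where all 10 names were matched, let-7c through its current name with the arm. Capitals mark the seed.
let-7a-5p: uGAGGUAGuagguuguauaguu
let-7b-5p: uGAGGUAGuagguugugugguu
let-7c: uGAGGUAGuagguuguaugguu
let-7d-5p: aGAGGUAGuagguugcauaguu
let-7e-5p: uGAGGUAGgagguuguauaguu
let-7f-5p: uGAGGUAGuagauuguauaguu
let-7g-5p: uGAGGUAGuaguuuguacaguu
let-7i-5p: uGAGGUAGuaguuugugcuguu
miR-98-5p: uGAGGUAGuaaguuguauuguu
let-7a-3p: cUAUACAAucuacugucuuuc
All 9 main arms carry the seed GAGGUAG, while let-7a-3p has its own, UAUACAA. Positions are counted from 1 at the 5′ end, and let-7a-5p is the reference. let-7f-5p differs from it by G12A, let-7e-5p by U9G and let-7c by A19G. let-7b-5p has A17G and A19G, let-7d-5p has U1A and U16C, let-7g-5p has G12U and U18C, and miR-98-5p has G11A and A19U. let-7i-5p is the most distant from let-7a-5p, with G12U, A17G, U18C and A19U.

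The members come from 12 hairpins. In GRCh38.p14, let-7a-1 (chr9:94175957-94176036), let-7f-1 (chr9:94176347-94176433) and let-7d (chr9:94178834-94178920) lie on the plus strand within an intron of the GENCODE v29 long non-coding gene AL158152.2, with gaps of 310 and 2400 bases between them. let-7a-2 (chr11:122146522-122146593, minus strand) is intronic in MIR100HG. let-7a-3 (chr22:46112749-46112822) and let-7b (chr22:46113686-46113768) are on the plus strand, 863 bases apart, and overlap exons of MIRLET7BHG transcripts. let-7c (chr21:16539828-16539911, plus strand) is intronic in MIR99AHG, and let-7e (chr19:51692786-51692864, plus strand) in SPACA6, opposite an exon of SPACA6P-AS. let-7g (chr3:52268278-52268361, minus strand) is in an intron of WDR82. let-7i (chr12:62603686-62603769, plus strand) is in an intron of AC048341.1 and overlaps an exon of LINC01465 on the other strand. let-7f-2 (chrX:53557192-53557274, minus strand) is intronic in HUWE1, as is the miR-98 gene. Some names therefore pool several genes: let-7a-5p comes from let-7a-1, let-7a-2 and let-7a-3, let-7f-5p from let-7f-1 and let-7f-2, and let-7a-3p from let-7a-1 and let-7a-3.

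The values are RPKM, reads per kilobase of sequence per 1000000 reads, as the authors deposited them. The RPKM column summed to 26530004 for parental cells and 5509071 for spheres, on an estimated 4542489 and 682359 miRNA reads. By that estimate miRNAs were 58.4% of the reads behind the parental RPKM and 12.1% of those behind the sphere RPKM. Levels are given as "rescaled RPKM", with each column brought to a sum of 1000000, so that they read as parts of the miRNA signal. Intervals in brackets are 95% exact (Clopper-Pearson) intervals unless named otherwise. They rest on estimated reads, compare these 2 libraries only and cover counting error alone, and PCR copies are no separate molecules. Epithelial markers were present in both libraries. In rescaled RPKM, miR-205-5p had 21938 (parental) and 19458 (spheres), miR-200c-3p 585 and 925, miR-141-3p 2710 and 12264, and miR-203a 2698 and 35056. Of 9 markers of liver, muscle, nerve, blood and pluripotent cells, none was above 14.8 rescaled RPKM, and miR-122-5p, miR-124-3p and miR-302b-3p were listed at 0 in both. Of the muscle and blood markers, 4 were higher in spheres, on few reads. miR-133a had 1.98 and 14.8 rescaled RPKM, on an estimated 9 and 10.1 reads, and miR-451a 0.44 and 5.86, on 2 and 4 reads. miR-1 and miR-142-3p were listed at 0 in parental cells and had 1.5 and 2 reads in spheres. miR-223-3p and miR-372 had less than 1 read in parental cells and were listed at 0 in spheres. miR-203a and miR-141-3p were thus higher in the library where the let-7 share was smaller, and the part of any of these markers in that share was not tested.

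The family as a whole took up a smaller part of the miRNA signal in spheres. Its 10 members summed to 51.1% of the parental column (51.0% to 51.1%) and to 38.1% of the sphere column (38.0% to 38.2%). The share was 12.9 percentage points smaller in spheres, or 1.34-fold lower (1.33 to 1.35). In bulk RNA, fewer cells with a miRNA and less of it per cell cannot be told apart. This sum does not depend on how reads were divided among look-alike members, if each read was counted once in all. The sources used here do not state whether such reads were split, dropped or counted for each match. let-7a-5p and let-7f-5p alone made up 37.7% of the parental and 28.2% of the sphere signal, 1.34-fold lower. The other 7 main arms went from 13.2% to 9.87%, likewise 1.34-fold lower.

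**Figure D1:**
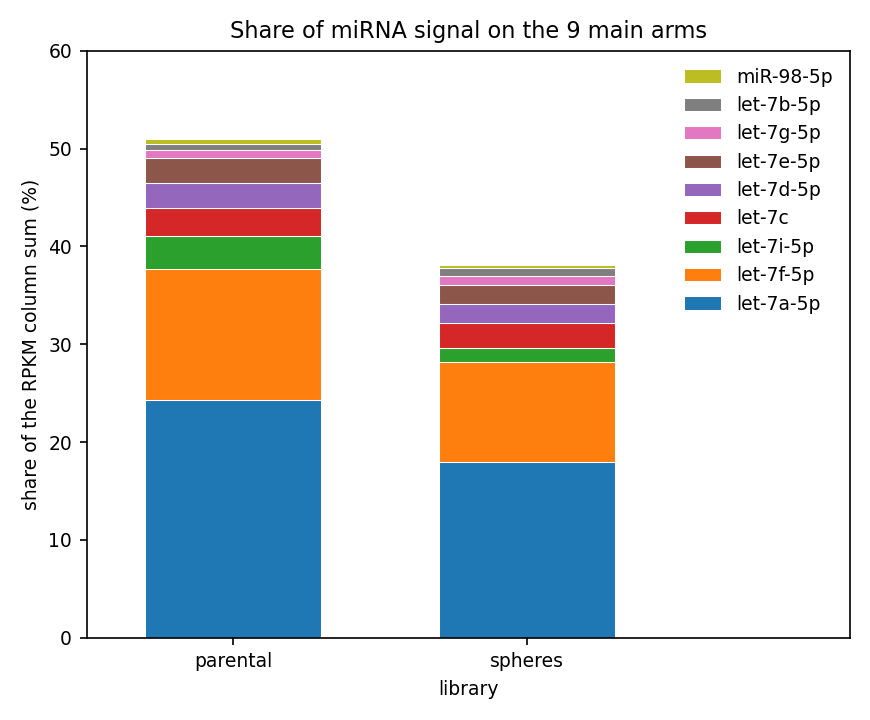
Stacked bars of the share of the RPKM column sum, in percent, held by each of the 9 let-7 and miR-98 main arms in the parental and the sphere library (1 library each, no error bars). The stack reaches 51.0% in parental cells and 38.1% in spheres, and let-7a-5p and let-7f-5p fill most of it in both.

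Because the family is about as large as everything else together, scaling to the miRNA total ties its own change to the apparent change of all others. Set against the miRNAs outside the family alone, the summed members had a log2 fold (spheres over parental) of -0.76, in place of -0.42 against the whole total. As deposited, per read behind the authors' RPKM, the members summed to 6.45-fold less in spheres, while the remaining 2028 names summed to 3.81-fold less. The family sum was down on each of these scales, but they are not separate checks. A smaller share of the miRNA total always means a smaller ratio to the miRNAs outside the family. As deposited, the sums inside and outside the family were both lower. The miRNAs outside it were higher in sum only as a share of miRNA, at 48.9% and 61.9%. Within that share miR-21-5p held 18.8% of the parental and 25.9% of the sphere signal, and miR-203a 0.270% and 3.51%. The rise was not general. Of 259 names outside the family that passed the level used below, 135 had a log2 fold above 0 on the miRNA total and 124 below.

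Fold changes of single members were read as log2 of rescaled RPKM plus 0.5, spheres over parental, and a miRNA counted as higher or lower from 2-fold on. Names averaging 10 rescaled RPKM or more were taken as measured. There were 269 of them, and all 10 members passed this level in each library. Of the 10, let-7i-5p and let-7a-3p were called lower and none higher. Among all 269 measured names, 19% were called lower and 23% higher, so the count of lower members, 2 of 10, lies near the background. The members' median log2 fold was -0.39, against 0.02 for all measured names, and 8 of 10 members lay below 0, against 132 of 269.

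let-7a-5p and let-7f-5p are the bulk of the family. let-7a-5p stood at 243075 rescaled RPKM in parental cells, the most abundant of all names, and at 179230 in spheres, where miR-21-5p was above it. Its log2 fold was -0.44 (-0.45 to -0.43). let-7f-5p was number 3 in both libraries, at 134348 and 102810, with a log2 fold of -0.39 (-0.40 to -0.37). Both were lower in spheres by less than 2-fold.

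let-7c, let-7d-5p and let-7e-5p formed a middle tier of similar level. let-7d-5p had 25739 (parental) and 19590 (spheres) rescaled RPKM, and let-7e-5p had 25530 and 19660. Their log2 folds were -0.39 (-0.42 to -0.37) and -0.38 (-0.40 to -0.35), with a difference of -0.02 (-0.05 to 0.02, normal approximation). let-7c went from 28301 to 24634, a smaller deficit with a log2 fold of -0.20 (-0.22 to -0.18). let-7a-5p, let-7d-5p, let-7e-5p and let-7f-5p thus had log2 folds between -0.44 and -0.38, with let-7c apart from them.

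let-7i-5p was the main arm with the lowest log2 fold, -1.21 (-1.24 to -1.18). It held 33701 rescaled RPKM in parental cells, number 5 of all names, and in spheres 14589, where it was number 14. It was 2.31-fold lower (2.26 to 2.36), on an estimated 153085 and 9955 reads. As deposited it had 894082 RPKM and 80371 RPKM, an 11.1-fold difference.

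miR-98-5p, the member with a non-let-7 name, was also lower. It went from 5557 to 3079 rescaled RPKM, 1.80-fold lower (1.73 to 1.89), short of the 2-fold rule. Its call depends on the scaling of the libraries. With 5 of the scalings tried as alternatives its log2 fold lay between -1.19 and -1.04 in place of -0.85, which made it a member called lower. With trimmed mean and median scalings over the measured names alone it was -0.88 and -0.87, which did not.

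let-7b-5p and let-7g-5p went the other way as a share of miRNA. let-7b-5p, encoded beside let-7a-3, stood at 5621 rescaled RPKM in the parental library and 8048 in that of the spheres, 1.43-fold higher (1.39 to 1.47). let-7g-5p stood at 7910 and 9138, 1.16-fold higher (1.12 to 1.19). Neither reached 2-fold. The sign of let-7b-5p held under each scaling to a part of the miRNA signal, down to a log2 fold of 0.18, but not as deposited (-1.75). That of let-7g-5p did not hold: it was 0.21 on the miRNA total, -0.13 against the miRNAs outside the family and -2.06 as deposited.

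**Figure D2:**
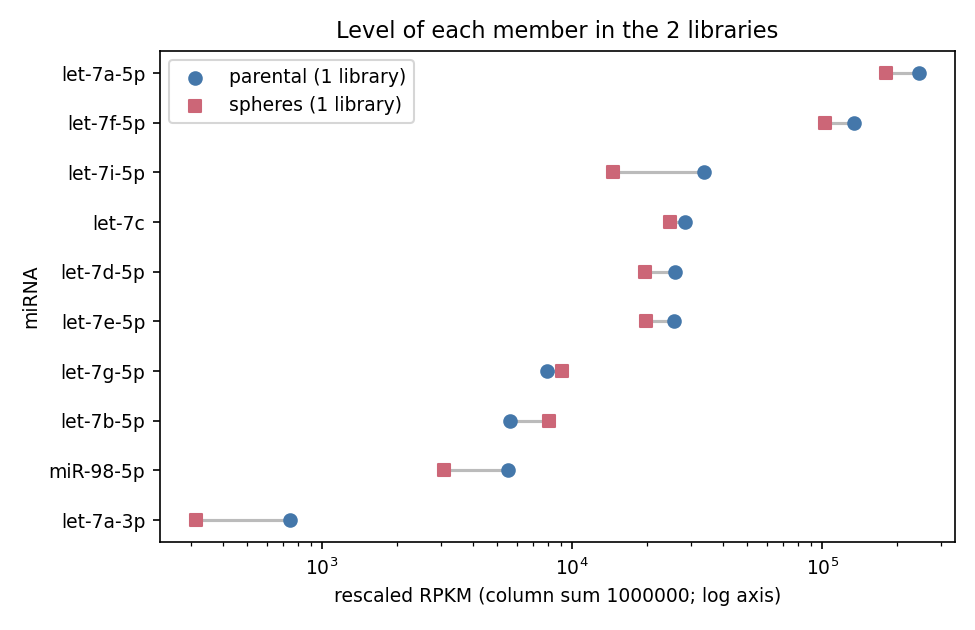
Rescaled RPKM (log axis, column sum 1000000) of the 10 members, with a circle for the parental and a square for the sphere library (1 library each). The square lies left of the circle for 8 members and right of it for let-7b-5p and let-7g-5p, and the widest gaps belong to let-7i-5p and let-7a-3p.

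The order of the main arms was nearly the same in the 2 libraries, apart from let-7i-5p. In parental cells it ran let-7a-5p, let-7f-5p, let-7i-5p, let-7c, let-7d-5p, let-7e-5p, let-7g-5p, let-7b-5p and miR-98-5p. In spheres let-7i-5p came behind let-7d-5p. Some neighbours in this order could not be separated by counting error. These were let-7b-5p and miR-98-5p in parental cells (ratio 1.01, 0.994 to 1.03) and let-7e-5p and let-7d-5p in spheres (1.00, 0.980 to 1.03). In parental cells let-7d-5p and let-7e-5p were nearly level, with a ratio of 1.01 (1.00 to 1.02). miR-98-5p, level with let-7b-5p in parental cells, was 2.61-fold below it in spheres (2.48 to 2.75).

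Shares within the family are free of the scaling of the libraries. They restate each fold relative to the sum of the main arms, so the same split follows and is no separate check. Of the summed main arms, let-7i-5p made up 6.61% (6.58% to 6.64%) in parental cells and 3.83% (3.76% to 3.91%) in spheres. miR-98-5p went from 1.09% (1.08% to 1.10%) to 0.809% (0.775% to 0.844%). let-7b-5p went from 1.10% (1.09% to 1.12%) to 2.11% (2.06% to 2.17%), and let-7g-5p from 1.55% (1.54% to 1.57%) to 2.40% (2.34% to 2.46%). let-7a-5p kept close to its part, at 47.7% and 47.1%, as did let-7f-5p at 26.4% and 27.0%, let-7d-5p at 5.05% and 5.14% and let-7e-5p at 5.01% and 5.16%. let-7c held 5.55% and 6.47%. The family was thus smaller in spheres and also differently composed, with less let-7i-5p and more let-7b-5p and let-7g-5p in it.

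**Figure D3:**
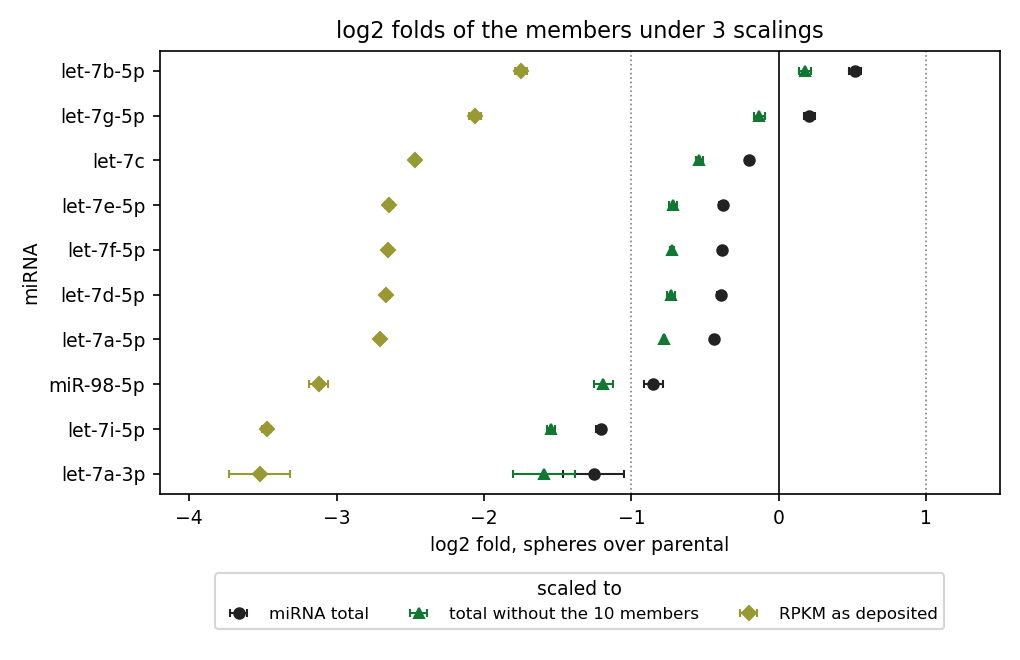
log2 folds (spheres over parental, 1 library each) of the 10 members scaled to the miRNA total (circles), to the total without the members (triangles) and as deposited (diamonds), with 95% counting intervals and dotted lines at 2-fold. The order of the members runs from let-7b-5p at the top to let-7i-5p and let-7a-3p at the bottom. It is the same under each scaling because a scaling moves all members by nearly the same amount against the zero line.

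On the deposited scale all 10 members were called lower, where 79.6% of all measured names were. Their log2 folds ran from -1.75 for let-7b-5p to -3.52 for let-7a-3p, against a median of -2.25 over all measured names. Against the miRNAs outside the family, let-7i-5p (-1.55), let-7a-3p (-1.59) and miR-98-5p (-1.19) were called lower, where 25.3% of all measured names were. On that scale 68 measured names were lower and 51 higher, against 51 lower and 62 higher on the miRNA total.

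Main arms closer in sequence were in the median closer in fold, with exceptions. The median absolute difference in log2 fold was 0.15 over the 4 pairs that differ by 1 base, 0.50 over 10 pairs with 2 changes, 0.47 over 11 pairs with 3 and 0.77 over 9 pairs with 4. The single pairs with 5 and 6 changes had 0.83 and 0.81. Pairs share members and are not independent. The 4 pairs of main arms that differ by 1 base had differences in log2 fold of 0.05 to 0.72 in size. let-7a-5p and let-7f-5p, 1 base apart, differed by 0.05, but let-7b-5p and let-7c, also 1 base apart, by 0.72 (0.67 to 0.77, normal approximation). let-7g-5p and let-7i-5p share the change G12U and differ from each other by A17G and A19U. Their difference of 1.42 (1.37 to 1.46, normal approximation) was the largest among the 10 pairs that differ by 2 bases. Over all 36 pairs the differences ranged from 0.01 to 1.73. The deposited values do not record how reads matching several of these sequences were divided, and the part of that division in any single member was not tested.

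Passenger arms can tell genes apart where main arms cannot. let-7a-3p went from 746 rescaled RPKM in parental cells to 313 in spheres, 2.39-fold lower (2.07 to 2.76), on an estimated 3235 and 204 reads. Its main arm let-7a-5p was only 1.36-fold lower. Per 1000 reads of let-7a-5p there were 2.93 of let-7a-3p in parental cells and 1.67 in spheres. let-7b-3p, the passenger of let-7b, went from 135 to 97.1 rescaled RPKM, opposite in direction to let-7b-5p, and from 24.1 to 12.1 reads per 1000 reads of its main arm. let-7d-3p went from 232 to 122 rescaled RPKM, and from 9.02 to 6.21 per 1000 reads. For these 3 arms the interval of the difference to the main arm in log2 fold stayed below 0, at -0.81 (-1.02 to -0.61), -0.99 (-1.39 to -0.63) and -0.54 (-0.88 to -0.21).

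The other passenger arms were thinly read in spheres. let-7f-2-3p, with an estimated 406 and 33.7 reads, had a log2 fold of -0.85 (-1.39 to -0.34), and let-7f-1-3p, with 134 and 7.88 reads, -1.32 (-2.57 to -0.31). let-7i-3p did not follow its main arm: it had 42 and 8 reads and 9.25 and 11.7 rescaled RPKM, while let-7i-5p was 2.31-fold lower. That difference, 1.53 in log2, had an interval from 0.25 to 2.66 and rests on the 8 sphere reads. let-7e-3p (51 and 8 reads), miR-98-3p (82 and 9.5) and let-7g-3p (11 and 4) could not be separated from their main arms. let-7a-2-3p, specific to the let-7a-2 gene, had 7 reads in parental cells and was listed at 0 in spheres, where 0 allows up to 3 reads. Of the 9 passenger arms read in both libraries, 3 were thus below their main arm in fold, 1 was above it and 5 were not separated at this depth.

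**Figure D4:**
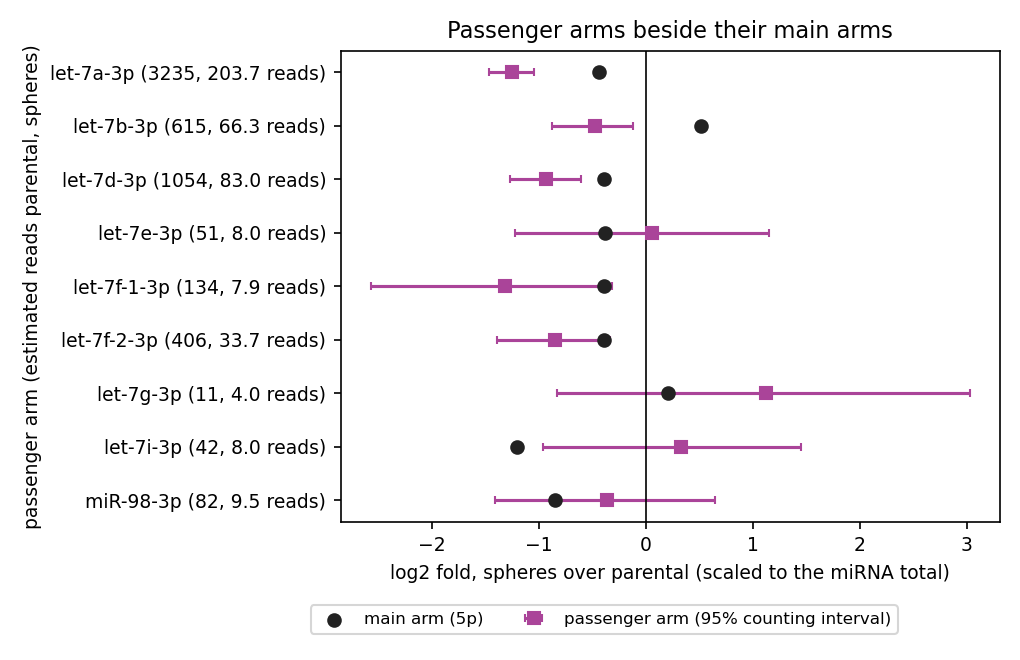
log2 fold (spheres over parental, scaled to the miRNA total) of each passenger arm (squares, 95% counting intervals) beside its main arm (circles), with estimated parental and sphere reads of the passenger arm in brackets. let-7a-3p, let-7b-3p and let-7d-3p lie left of their main arms and let-7i-3p lies right of its own.

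Some let-7 genes lie beside genes of the miR-99, miR-100 and miR-125 families, and the main arms of miR-99b, miR-125a and miR-99a had higher log2 folds than the let-7 arm beside them. let-7e lies 104 bases from miR-99b and 389 bases from miR-125a on the same strand. While let-7e-5p had a log2 fold of -0.38, miR-99b-5p went from 2241 to 3223 rescaled RPKM (0.52) and miR-125a-5p from 1899 to 2837 (0.58). The differences of let-7e-5p to them were -0.90 (-0.97 to -0.83) and -0.96 (-1.03 to -0.88), by normal approximation. let-7c lies 658 bases from miR-99a, whose main arm had 0.16, and the difference was -0.36 (-0.48 to -0.25, normal approximation). Near let-7a-2, miR-100-5p had 0.08 and miR-125b-5p, which also has a gene on chromosome 21, had -0.14. Of the passenger arms there, miR-125b-1-3p was lower, at -1.41 (-1.88 to -0.99). miR-100-3p had -0.50 (-1.03 to 0.02), an interval that holds 0. No difference to a let-7 arm was computed at that locus. Of 10 measured arms of miR-99a, miR-99b, miR-100, miR-125a and miR-125b, 1 was called higher (miR-125b-2-3p) and 1 lower (miR-125b-1-3p), with a median of 0.21. As deposited, 9 of the 10 were called lower. These counts lie near the shares over all measured names, which were 23% higher and 19% lower on the miRNA total and 79.6% lower as deposited.

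The arms of different let-7 family genes compared within clusters formed pairs of unlike kinds, so the clusters cannot be set against each other. The passenger arms of the chromosome 9 cluster, let-7a-3p (-1.25), let-7f-1-3p (-1.32) and let-7d-3p (-0.93), had intervals of their pairwise differences (normal approximation) that all hold 0, though let-7a-3p also comes from chromosome 22. On the X chromosome the main arm miR-98-5p and the passenger arm let-7f-2-3p both had -0.85. The interval of their difference ran from -0.51 to 0.51 (normal approximation). The intervals on chromosomes 9 and X are wide, since the passenger arms have few sphere reads. On chromosome 22, let-7b-5p (0.52) lay above let-7a-3p (-1.25), with a difference of 1.77 (1.56 to 1.98, normal approximation). This pair sets a main arm against a passenger arm that also comes from chromosome 9. A main arm of the chromosome 9 cluster, let-7d-5p at -0.39 (-0.42 to -0.37), lay above let-7a-3p (-1.46 to -1.05) too. The chromosome 22 passenger arm let-7b-3p, at -0.48 (-0.87 to -0.12), did so as well. Differences of these arms to let-7a-3p were not computed.

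**Figure D5:**
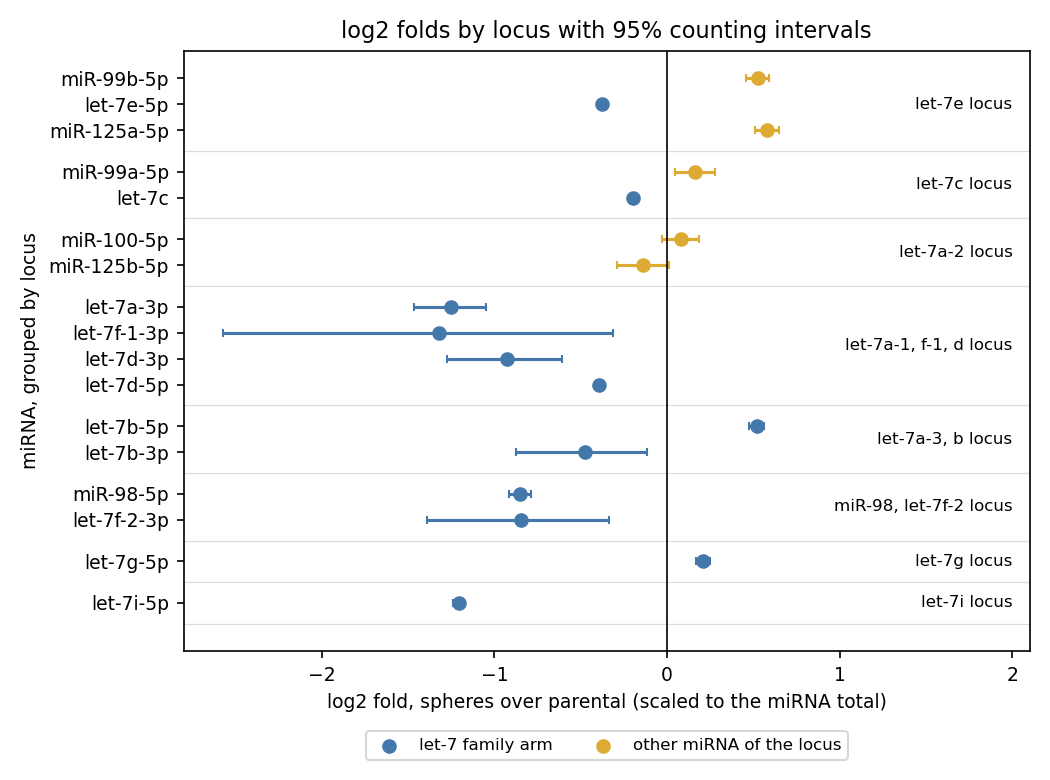
log2 folds (spheres over parental, scaled to the miRNA total, 1 library each) with 95% counting intervals for arms grouped by locus, let-7 family arms in blue and other miRNAs of the locus in yellow. let-7e-5p and let-7c lie left of their neighbours of the miR-99 and miR-125 families. let-7a-3p is drawn with the let-7a-1 gene but is also made from let-7a-3, and miR-125b-5p also has a second gene.

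The loops between the arms of let-7 hairpins were searched for GGAG, in capitals below, on the RNA strand. They are shown for the let-7 hairpins whose main arms lay furthest apart in fold.
let-7i loop: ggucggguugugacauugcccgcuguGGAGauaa
let-7g loop: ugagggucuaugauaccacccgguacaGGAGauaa
let-7b loop: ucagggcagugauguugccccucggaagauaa
The motif was found in 8 of 10 let-7 loops with both arms in the RefSeq table, and not in those of let-7a-3 and let-7b. let-7f-2 was not searched. Of 738 human hairpins searched, 8.13% hold GGAG in the loop, and of the 61 with loops of 23 to 35 bases, the range of let-7, 27.9%. Both sets include the 10 let-7 loops. Of the 17 loops with the motif among those 61, 8 are let-7 loops. Main arms from loops with the motif spread widely in log2 fold, with let-7i-5p at -1.21 and let-7g-5p at 0.21, while let-7b-5p, from a loop without it, had 0.52. The other hairpin without it, let-7a-3, contributes to let-7a-5p (-0.44) and let-7a-3p (-1.25), which also come from hairpins with the motif. The part of the motif in any fold was not tested. LIN28 itself is a protein-coding gene and was not measured here.

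Other names add little to the pool of the GAGGUAG seed. miR-4458 and miR-4500, which share it, had less than 1 estimated read in parental cells and were listed at 0 in spheres. The names outside the family whose log2 fold lay nearest to that of the summed members, among 45 names averaging 1000 rescaled RPKM or more, were miR-186-5p (-0.41), miR-10a-5p (-0.31), miR-222-3p (-0.30), miR-30b-5p (-0.28) and miR-10b-5p (-0.28). Likeness here is the absolute difference in log2 fold over 2 libraries, from 0.014 for miR-186-5p to 0.14 for miR-10b-5p. miR-186-5p, the nearest, went from 2766 to 2085 rescaled RPKM.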

How the data were processed

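Per the file headers, the deposited files give 1 RPKM value per mature miRNA name, and no counts. The submitters' processing notes name the build hg19. The sources used here name no aligner, no rule for reads that match several miRNAs and no total behind the RPKM. The low values fall on steps. The commonest, 5.84 RPKM (parental) and 8.07 RPKM (spheres), was taken as 1 read on 22 nt. Reads of single names were estimated as RPKM over that step, times mature length over 22 nt. The miRNA read totals, and the intervals of shares of the whole column, used RPKM over the step without mature length. With RefSeq lengths, 52.3% of 432 parental and 51.0% of 312 sphere values between about 1 and 50 reads were whole within 0.001 reads, as were 5 of 9 and 4 of 8 passenger arms of the family beside let-7a-3p. The rest are fractions, so the estimate is approximate. Depth limits low names more in spheres: 3 reads are worth 0.660 (parental) and 4.40 (spheres) rescaled RPKM.

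Columns were rescaled to 1000000, log2 folds used a pseudocount of 0.5 rescaled RPKM (0.5 RPKM as deposited), and the steps were tested on simulated data. The simulation drew whole reads and changed only names outside the most abundant ones. It therefore did not test fractional reads or a change in the largest names. Python 3.11.15, NumPy 2.4.6, pandas 2.3.3, SciPy 1.17.1 and matplotlib 3.10.9 were used. Trimmed-mean and median-of-ratios scaling ran over names above 0 in both libraries. Both had first been run over the measured names alone and were widened after those values were seen, so the first versions are kept as added alternatives. The pseudocount on the deposited scale was also set to 0.5 RPKM after a first run with another value, with no change in the members' calls. The loop of 1 hairpin is not reported here. Alternatives covered scaling, pseudocount, filter, length and the interval rule. Named were all members, all other arms of let-7 and miR-98, seed mates, the miR-99, miR-100 and miR-125 neighbours, miR-21-5p and the 5 likest miRNAs. miR-200c-3p, miR-141-3p, miR-205-5p, miR-203a, miR-122-5p, miR-124-3p, miR-302b-3p, miR-1, miR-133a, miR-451a, miR-142-3p, miR-223-3p and miR-372 come from the list of cell type markers. The members and lists were chosen with earlier results of these data known.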

Additional observations from a re-analysis of the deposited data

How the results depend on the processing

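The log2 fold of the summed members was -0.42 on the miRNA total. It was -0.61 with the trimmed mean of log ratios, -0.63 with the median of ratios, -0.66 with the total without the 10 most abundant miRNAs of either library, -0.74 with the upper quartile, -0.76 with the total without the members and -2.69 with RPKM as deposited. These scalings moved the median log2 fold of all measured names by -0.19 (trimmed mean), -0.21 (median of ratios), -0.24 (without the most abundant), -0.32 (upper quartile), -0.34 (without the members) and -2.27 (as deposited), and the sum moved with them. The 2 lower members became 3, with miR-98-5p, under the first 5 of these scalings and 10 as deposited. Among all 269 measured names the count of lower ones rose too, from 51 on the miRNA total. It was 63, 65, 66, 68 and 68 under those 5, in the order above, and 214 as deposited. The trimmed mean and median of ratios depend on which names enter. Computed first over the measured names alone, they gave sums of -0.45 and -0.44 and shifts of the median of -0.03 and -0.02. Lower members were then 2, without miR-98-5p, beside 52 of 269 measured names in each. The names were widened to all above 0 in both libraries after those values were seen, so both versions are given. No member was called higher under any alternative. The count of 2 was the same with a pseudocount of 5, with mature length taken out, with no filter, among names averaging 100 rescaled RPKM or more and when the whole counting interval had to lie beyond 2-fold. The background of lower names was 51 of 269 on the miRNA total, and also with mature length taken out. With a pseudocount of 5 it was 42 of 269. It was 180 of 2038 with no filter, 18 of 129 among names averaging 100 or more and 18 of 269 by the interval rule. The log2 fold of let-7g-5p was between -0.13 and 0.02 under the first 5 scalings and 0.18 and 0.19 over the measured names, so its sign is not settled. Taking the step as 1 read on 21 or 23 nt changes the read numbers and moved the upper bound of each member's log2 fold by less than 0.5 of its interval. Fewer miRNA reads in spheres limit the passenger arms most. No paired analysis was possible because each group has 1 library, and no library could be left out.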
